A study of Homo sapiens with 12 samples.

Results

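Huh7 and HepG2 are human liver cancer lines, and from each a line resistant to sorafenib had been raised. Sorafenib is an oral drug against advanced hepatocellular carcinoma (HCC) that inhibits RAF kinases and the receptors for VEGF and PDGF. How far resistant cells of either origin differ in their transcriptomes was examined here in 6 samples of the 12 in the series, 3 of resistant Huh7 and 3 of resistant HepG2. The other 6 samples, 3 of each parental and sorafenib-sensitive line, do not enter the main comparison of the resistant lines. They serve for the last comparison and what is drawn from it, for parental medians by chromosome and for an alternative fit of all 12 samples. All groups are labelled WT in genotype, and the labels give no engineered allele. Resistant cells of either line started at a dose of 10 μmol, were allowed to regrow without drug, and went through rounds of rising dose for 8 months. The parental cells carry no treatment. There was 1 resistant line of each origin, whether it was a clone and whether drug was present at harvest are not given in the sources used here, and nothing says that replicates came from separate selections. Line of origin and course of selection therefore cannot be told apart, and the p-values measure the spread between these samples, which may be technical.

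RNA abundance was given as FPKM, fragments scaled to gene length and to the mapped fragments of the sample, which lets levels of different genes be compared. The members are the 12550 of 27249 genes with an Ensembl identifier that reached 1 FPKM in 3 or more of the 6 samples. Reads recovered from the FPKM values numbered 18972395 to 19285958 in the 3 resistant Huh7 samples and 16935468 to 18281778 in the 3 resistant HepG2 samples. Mitochondrially encoded genes took 1.22% of the summed FPKM in resistant Huh7 replicate 3 and 0.0288% to 0.0804% in the other 5 samples, so that this sample stood apart for them. Resistant HepG2 replicate 1 also stood apart within its line. Replication-dependent histone genes took 2.24% of its summed FPKM, against 3.87% and 3.33% in the other HepG2 samples. Among genes given below, it was the lowest HepG2 sample for FASN, GPX4, BOK, FGFR4, NOTUM, FDXR, CYP2W1 and NR5A1. It was the highest for CDK6, LGR5 and SOS1. How far this extends across genes was not tested. Each difference given below is the mean log2(FPKM + 1) of resistant Huh7 minus that of resistant HepG2, with its standard error (SE). Because 1 FPKM is added before the logarithm, it understates the difference of weakly expressed genes. A gene was called where the adjusted p was under 0.05 and the difference exceeded 1 in either direction. Folds are ratios of the line means in FPKM, with a floor of 3 reads per sample where a line was at or under it ("at least").

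As background, liver cancer cells keep part of the hepatocyte programme, the secretion of plasma proteins, lipoprotein assembly and drug metabolism, and often re-express fetal genes. HepG2 is known for an activating lesion of beta-catenin, the transducer of Wnt signals, and has been traced to hepatoblastoma, whereas Huh7 came from a hepatocellular carcinoma. These features were known of the parental lines and were not measured here.

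The labelled cell type was checked against liver markers. Albumin stood at 571, 794 and 721 FPKM in resistant Huh7 and 951, 781 and 744 in resistant HepG2, and the other defining secreted products APOA1, APOB and SERPINA1 were between 142 and 1410 FPKM in all 6 samples. CYP3A4, the main drug-oxidising enzyme of adult liver, was at most 0.150 FPKM in any sample, and the bile acid importer SLC10A1 at most 1.42, so that these markers of the mature hepatocyte were close to absent. Of 22 markers of other cell types, 20 were in the tables and 7 passed the expression filter. The defining markers of leukocytes (PTPRC), fibroblasts (COL1A1) and blood endothelium (VWF) did not, although the endothelial gene PECAM1 reached 1.87, 1.94 and 1.97 FPKM in resistant Huh7 and 1.36, 1.54 and 1.12 in resistant HepG2. ACTA2, a smooth muscle actin listed as a marker of fibroblasts and stellate cells, and KRT19, a bile duct keratin, were the called members. ACTA2 was at 13.6, 20.3 and 13.7 FPKM in resistant HepG2 against 0.142, 0.0871 and 0.141 in resistant Huh7. KRT19 was at 81.7, 55.3 and 74.1 FPKM in resistant Huh7 against 10.8, 16.4 and 13.1 in resistant HepG2. PDGFRB, another marker of fibroblasts and stellate cells (0.15), also passed the filter and was not called. EPCAM, another bile duct marker, passed it too and was not called, with a difference opposite to that of KRT19 (-0.63). These samples are RNA of whole cultures, in which fewer expressing cells and less RNA per cell cannot be told apart.

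Resistant Huh7 and resistant HepG2 were separated by a large part of the transcriptome, in nearly equal number either way. Of the 12550 genes, 3613 (28.8%) were called, 1805 higher in Huh7 (14.4%) and 1808 higher in HepG2 (14.4%), and the median difference over all genes was -0.03. The 3 samples of either line did not overlap for 8973 genes (71.5%). These shares over all genes are the reference for the counts of every list below. Among the called genes, 961 differed by more than 4-fold and 121 by more than 16-fold on the log2(FPKM + 1) scale. Pearson's correlation of log2(FPKM + 1) across genes was 0.962 to 0.986 between replicates of a line and 0.701 to 0.754 between lines, where genes are not independent replicates. Leaving out any 1 sample with the same genes tested kept 3080 of the 3613 calls every time. Called genes numbered 3538 without resistant Huh7 replicate 3 and 3442 without resistant HepG2 replicate 1.

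**Figure D1:**
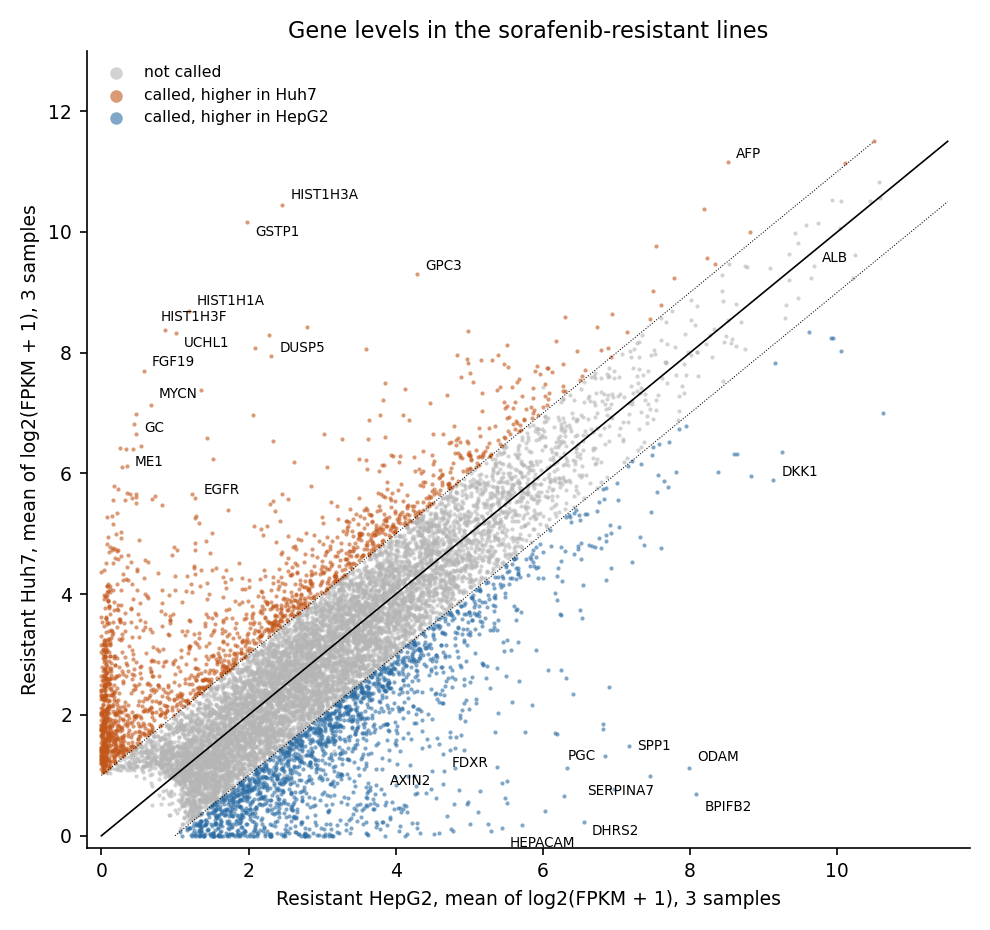
Mean log2(FPKM + 1) of each tested gene in resistant HepG2 (x axis) and resistant Huh7 (y axis), n = 3 samples per line, with the line of equality (solid) and differences of 1 (dotted). Orange points are the 1805 genes called higher in resistant Huh7, blue points the 1808 called higher in resistant HepG2, and grey points were not called, with Y-linked genes and XIST not drawn. GSTP1 and FGF19 lie far to the upper left, BPIFB2 and ODAM far to the lower right, and ALB on the diagonal.

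The largest difference towards Huh7 was that of GSTP1, a glutathione transferase that conjugates electrophiles (chromosome 11, 67583595 to 67586656, plus strand, GRCh38). It measured 1342, 913 and 1245 FPKM in the resistant Huh7 samples and 2.41, 4.01 and 2.58 in the resistant HepG2 samples. The lines lay far apart in every sample, by 389-fold in the means and 8.19 on the log2 scale (SE 0.20, adjusted p 1.13e-07). The neuronal ubiquitin hydrolase UCHL1 was next among genes other than histone genes, at 326, 306 and 333 against 0.88, 1.17 and 0.993 FPKM. FGF19, a hormone that represses bile acid synthesis through the receptor FGFR4 (chromosome 11, 69698232 to 69704642, minus strand), stood at 224, 191 and 209 against 0.458, 0.559 and 0.451 FPKM, a difference of 7.13 (SE 0.10, adjusted p 4.11e-08). MYCN, an oncogenic transcription factor of the MYC family, was at 139, 141 and 140.2 FPKM in resistant Huh7, with very little spread, and at 0.408, 0.736 and 0.648 in resistant HepG2. The remaining Huh7-side genes of largest difference were the neuropeptide precursor NTS (6.52), the complement inhibitor SERPING1 (6.37), the vitamin D carrier GC (6.19), the gap junction protein GJA1 (6.17), the malic enzyme ME1 (6.07) and the histone genes HIST1H3A, HIST1H3F and HIST1H1A (7.99, 7.52 and 7.51).

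On the HepG2 side the largest difference was that of BPIFB2, a member of the lipid-binding BPI family (chromosome 20, 33007600 to 33023709, plus strand), at 217, 318 and 288 FPKM in resistant HepG2 and 0.75, 0.601 and 0.499 in resistant Huh7 (-7.40, SE 0.15, adjusted p 8.65e-08). AKR1C3, an aldo-keto reductase acting on steroids and prostaglandins, stood at 132, 122 and 118 FPKM against 0.709, 0.927 and 0.522, and SLC2A3, a high-affinity glucose transporter, at 69.3, 76.5 and 85.2 against 0.513, 0.817 and 0.418. SPP1, the secreted phosphoprotein osteopontin, was at 173, 125 and 135 FPKM against 1.5, 2.03 and 1.88. For all 4 genes the lowest HepG2 sample was many times the highest Huh7 sample. The other 8 were ODAM (-6.86), the thyroxine carrier SERPINA7 (-6.47), the dehydrogenase DHRS2 (-6.33), the synaptic protein CPLX2 (-5.62), the secreted phospholipase PLA2G2E (-5.54), the pepsinogen PGC (-5.53), the adhesion protein HEPACAM (-5.31) and the dicarboxylate carrier SLC13A3 (-5.22).

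Some genes were expressed in 1 resistant line and nearly silent in the other. With at least 10 FPKM in all 3 samples of a line and at most 0.1 in all 3 of the other, 17 genes (15 protein-coding) were present in resistant Huh7 and 14 (12 protein-coding) in resistant HepG2. The most abundant coding genes of the Huh7 set were MGLL, the lipase of monoacylglycerols (32.7, 26.6 and 30.2 FPKM), the actin cross-linker FLNC (28.9, 23.5 and 30.8), the neuropeptide precursor GAL (19.7, 18.5 and 28.9), TMEM176B (22.7, 17.4 and 20.4), the ETS factor SPDEF (15.6, 12.1 and 17.6), the matrix protein EFEMP1 (13.8, 15.3 and 15.6), COL26A1 (16.1, 12.1 and 16.2) and NAA11 (14.3, 14.9 and 14.3). In resistant HepG2 these were HEPACAM and SLC13A3, NR5A1, the steroidogenic nuclear receptor SF-1 (16.5, 35.7 and 30.9 FPKM), the EGFR ligand TGFA (24.5, 25.2 and 27.7), the inactive Wnt co-receptor kinase PTK7 (19.2, 27.1 and 23.4), TEX37 (22.8, 21.3 and 21.6), the imprinted zinc finger gene PEG3 (22.5, 17.2 and 18) and the procollagen protease ADAMTS2 (12.5, 19.3 and 19.6). The spread was widest for NR5A1, with replicate 1 the lowest HepG2 sample, yet all HepG2 samples stood far above any Huh7 sample.

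Most genes induced by p53, the stress-activated tumour suppressor, were lower in resistant Huh7. Of 28 tested targets, 18 were called higher in resistant HepG2 and 1 higher in resistant Huh7, against 14.4% of all genes for either direction. The median difference was -1.31, and the samples of the lines did not overlap for 27 of the 28, against 71.5% of all genes. EDA2R, a receptor of the TNF receptor family, was at 12.7, 9.6 and 11.9 FPKM in resistant HepG2 and 0, 0.029 and 0.0147 in resistant Huh7, a fold of at least 259.5. FDXR, the mitochondrial ferredoxin reductase, stood at 15.8, 32.9 and 26.9 against 1.17, 0.879 and 1.29 FPKM, and the stress cytokine GDF15 at 12.5, 14.8 and 13.3 against 0.556, 0.273 and 0.479. CDKN1A, the cyclin-dependent kinase inhibitor p21, was at 3, 5.17 and 5.09 FPKM in resistant HepG2 and 0.726, 0.51 and 1.38 in resistant Huh7 (-1.53, SE 0.23, adjusted p 6.79e-04). MDM2, the ubiquitin ligase that degrades p53, showed the smaller fold of 3.68, with 24.9, 18 and 21.3 FPKM against 5.65, 6.28 and 5.49. The DNA damage sensor DDB2 (-2.60), the death receptor FAS (-3.21) and SESN1 (-1.07), an inhibitor of mTORC1, were also among the 18, and they are added here because their promoters are shown.

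The start of these genes is shown because p53 binds a decamer that can be searched for. Promoter windows of 280 bases, 250 before to 30 after each transcription start in RefSeq (GRCh38.p14), could be matched for 22 of the 28 tested targets, and 6 held at least 1 copy of the p53 consensus decamer on either strand. Among 27305 genes with a promoter entry 7.5% held it, and 7.15% of the 8646 tested ones. The 4 called targets with a match are printed 5′ to 3′ on the strand of the gene, with the decamer in capitals and everything else in lower case.
FDXR, chr17:74872965-74873244, minus strand: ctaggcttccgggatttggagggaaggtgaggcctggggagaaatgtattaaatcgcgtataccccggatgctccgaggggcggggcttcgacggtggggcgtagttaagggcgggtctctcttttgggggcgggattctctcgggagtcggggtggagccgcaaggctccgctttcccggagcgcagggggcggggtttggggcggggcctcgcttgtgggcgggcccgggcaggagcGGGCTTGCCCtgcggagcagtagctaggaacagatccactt
FAS, chr10:88991181-88991460, plus strand: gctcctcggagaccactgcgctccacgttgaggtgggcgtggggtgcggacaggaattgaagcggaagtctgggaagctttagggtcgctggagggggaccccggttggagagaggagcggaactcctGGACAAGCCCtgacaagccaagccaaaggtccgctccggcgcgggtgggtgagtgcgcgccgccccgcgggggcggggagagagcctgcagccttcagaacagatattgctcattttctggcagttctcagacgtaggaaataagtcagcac
DDB2, chr11:47214724-47215003, plus strand: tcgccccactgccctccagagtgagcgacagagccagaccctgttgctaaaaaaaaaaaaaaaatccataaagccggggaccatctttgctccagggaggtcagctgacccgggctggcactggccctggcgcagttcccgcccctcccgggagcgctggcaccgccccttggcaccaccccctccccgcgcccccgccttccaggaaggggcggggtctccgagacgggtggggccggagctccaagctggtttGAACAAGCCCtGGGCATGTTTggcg
SESN1, chr6:109008959-109009238, minus strand: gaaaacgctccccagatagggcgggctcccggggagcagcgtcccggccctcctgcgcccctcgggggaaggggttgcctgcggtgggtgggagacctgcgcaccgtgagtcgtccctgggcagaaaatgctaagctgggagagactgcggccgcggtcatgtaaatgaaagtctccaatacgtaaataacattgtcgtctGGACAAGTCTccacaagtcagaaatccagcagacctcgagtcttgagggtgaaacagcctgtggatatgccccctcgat
DDB2 carried 2 copies, which begin 5 and 16 bases from its start. A match describes the letters of the window and is not a measured binding site, and the windows leave out introns, in which several known p53 sites lie.

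Genes activated by Wnt and beta-catenin were also mostly lower in resistant Huh7. Of 18 tested, 10 were called higher in resistant HepG2 and 2 higher in resistant Huh7, against 14.4% of all genes for either direction. The median was -1.44. AXIN2, a feedback inhibitor that is a general target of the pathway, was at 10.9, 13.2 and 15.1 FPKM in resistant HepG2 and 0.575, 0.665 and 0.916 in resistant Huh7 (-3.03, SE 0.14, adjusted p 1.92e-06). NKD1 and NOTUM, further feedback inhibitors, stood at 15.9, 20.4 and 19.5 and 7.18, 20.5 and 15.4 FPKM in resistant HepG2 and at or below 0.348 in every resistant Huh7 sample. The stem cell receptor LGR5 was at 53.7, 38.6 and 39.5 FPKM against 6.67, 8.17 and 7.3, and TNFRSF19, another receptor, at 84.3, 73.4 and 80.8 against 0.907, 1.14 and 1.49. The samples of the lines lay apart for each of these genes. Higher in resistant Huh7 were the receptor FZD7 (11.9, 12.6 and 13.4 against 0.275, 0.326 and 0.361 FPKM) and, by a margin close to the limit, the factor TCF7L1 (1.06), whose call was lost when the trend with GC content was removed and without resistant HepG2 replicate 1. GLUL, the glutamine synthetase that marks beta-catenin activity in liver, did not overlap but was not called (90.1, 86.6 and 83 FPKM in resistant Huh7 and 55.8, 72.5 and 66.5 in resistant HepG2, 0.42), and LEF1 did not pass the filter. The motif CTTTGA of the TCF factors was found on either strand in the promoter window of 2 of the 9 members with an entry, against 14.8% of all 27305 genes.

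**Figure D2:**
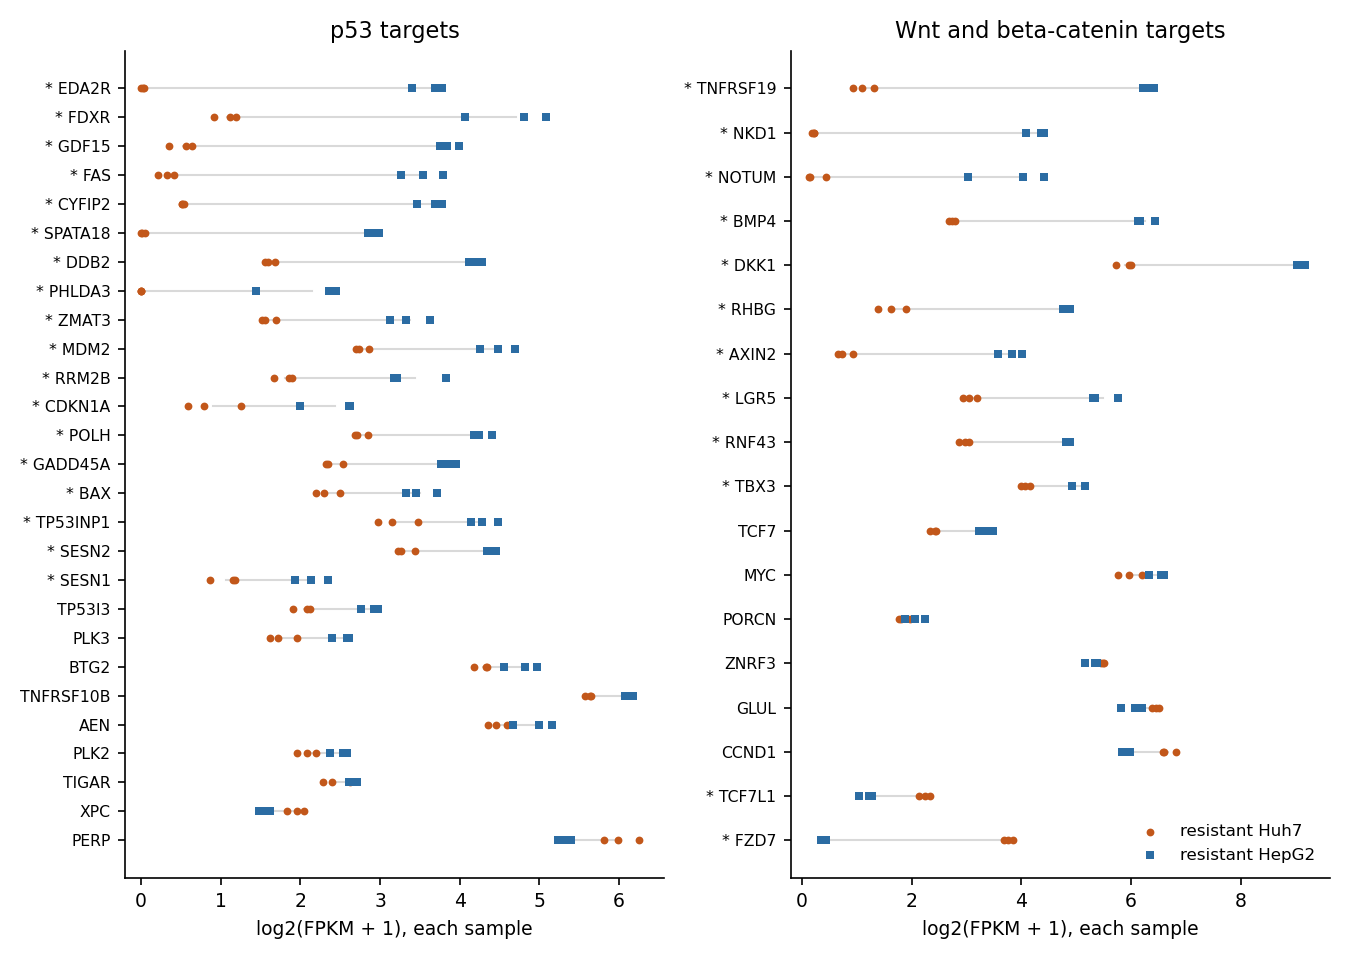
Log2(FPKM + 1) of p53 and Wnt target genes in each resistant Huh7 sample (circles) and HepG2 sample (squares), n = 3 per line. An asterisk marks a called gene, and 1 member of the p53 list is not drawn. For the called targets drawn other than FZD7 and TCF7L1, the HepG2 points lie above the Huh7 points.

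Among cholesterol and fatty acid synthesis genes, more were called on the Huh7 side than on the HepG2 side, and most were not called. Of 49 tested members, 18 were called higher in resistant Huh7 and 4 higher in resistant HepG2, and the median was 0.84. INSIG1, the sterol-regulated anchor that holds SREBP precursors in the endoplasmic reticulum, showed the largest difference, with 78.1, 92.4 and 81.9 FPKM in resistant Huh7 and 0.34, 0.51 and 0.223 in resistant HepG2 (5.97, SE 0.12, adjusted p 8.40e-08). The desaturase FADS2 stood at 139.5, 112.0 and 124 against 2.71, 3.46 and 3.35 FPKM, and AGPAT2, an acyltransferase of phosphatidic acid synthesis, at 71.2, 59.8 and 96 against 1.22, 2.49 and 2. Of the main lipogenic enzymes, FASN stood at 198, 169.9 and 261 FPKM in resistant Huh7 and 72.9, 167 and 158 in resistant HepG2 (0.73, SE 0.32, adjusted p 0.0813), with 1 low HepG2 sample, and was not called. SCD was just under the limit of size (0.93). On the HepG2 side were the glucose-sensing factor MLXIPL (18.3, 25.2 and 20.6 against 0.788, 0.797 and 0.579 FPKM), the glycerol acyltransferase GPAM (-2.59), the acyl-CoA synthetase ACSL5 (-1.48) and the lipid droplet coat protein PLIN2, at 160.2, 196 and 180.0 against 79.3, 75.4 and 78.2 FPKM.

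Promoters of sterol-responsive genes often carry a CCAAT box, the site of NF-Y, beside the SREBP element. The letters CCAAT, searched on both strands, were in the 280-base window of 27 of the 40 members with an entry and of 12 of the 18 called members with one, against 38.7% of all 27305 genes and 43.0% of the 8646 tested. The sterol element TCACNCCAC was in 3 of the 40 windows, against 1.28% of all genes. The windows of INSIG1, the member of largest difference, and of HMGCS1, the cytosolic HMG-CoA synthase, are printed with each CCAAT box, or ATTGG on the other strand, in capitals.
INSIG1, chr7:155297628-155297907, plus strand: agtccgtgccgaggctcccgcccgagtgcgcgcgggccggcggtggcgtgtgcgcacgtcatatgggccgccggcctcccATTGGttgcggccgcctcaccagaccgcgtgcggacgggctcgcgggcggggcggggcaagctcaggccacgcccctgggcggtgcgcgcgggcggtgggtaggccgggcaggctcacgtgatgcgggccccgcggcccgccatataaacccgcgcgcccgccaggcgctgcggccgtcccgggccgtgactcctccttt
HMGCS1, chr5:43313383-43313662, minus strand: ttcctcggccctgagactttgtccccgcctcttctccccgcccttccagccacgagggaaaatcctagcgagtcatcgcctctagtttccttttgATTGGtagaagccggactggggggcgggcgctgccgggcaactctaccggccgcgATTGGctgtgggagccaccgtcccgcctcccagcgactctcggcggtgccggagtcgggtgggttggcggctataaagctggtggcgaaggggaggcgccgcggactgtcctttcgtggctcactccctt
HMGCS1, which carried 2 copies, measured 92.7, 107 and 90.5 FPKM in resistant Huh7 and 13.9, 12.1 and 14.6 in resistant HepG2 (2.75, SE 0.11, adjusted p 9.04e-07).

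Fatty acid oxidation and ketone synthesis had a share of calls near that of all genes (32.3% against 28.8%), 8 of 31 tested higher in resistant HepG2 and 2 higher in resistant Huh7, with a median of -0.46. PPARGC1A, a coactivator of mitochondrial genes, was at 6.29, 4.04 and 4.69 FPKM in resistant HepG2 and 0.116, 0.0906 and 0.0774 in resistant Huh7. CPT1A, which admits fatty acids to mitochondria, stood at 15.5, 20.7 and 17.9 against 3.8, 2.95 and 3.59 FPKM, and the trifunctional protein subunit HADHB at 121, 134 and 129 against 53.9, 59.1 and 55.4. The other side held the carnitine carrier SLC25A20 (16.7, 16.5 and 16.1 FPKM in resistant Huh7 against 2.56, 3.37 and 3.14). The peroxisomal enzyme EHHADH (-0.06) and the fatty acid carrier FABP1 (0.81) were not called.

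**Figure D3:**
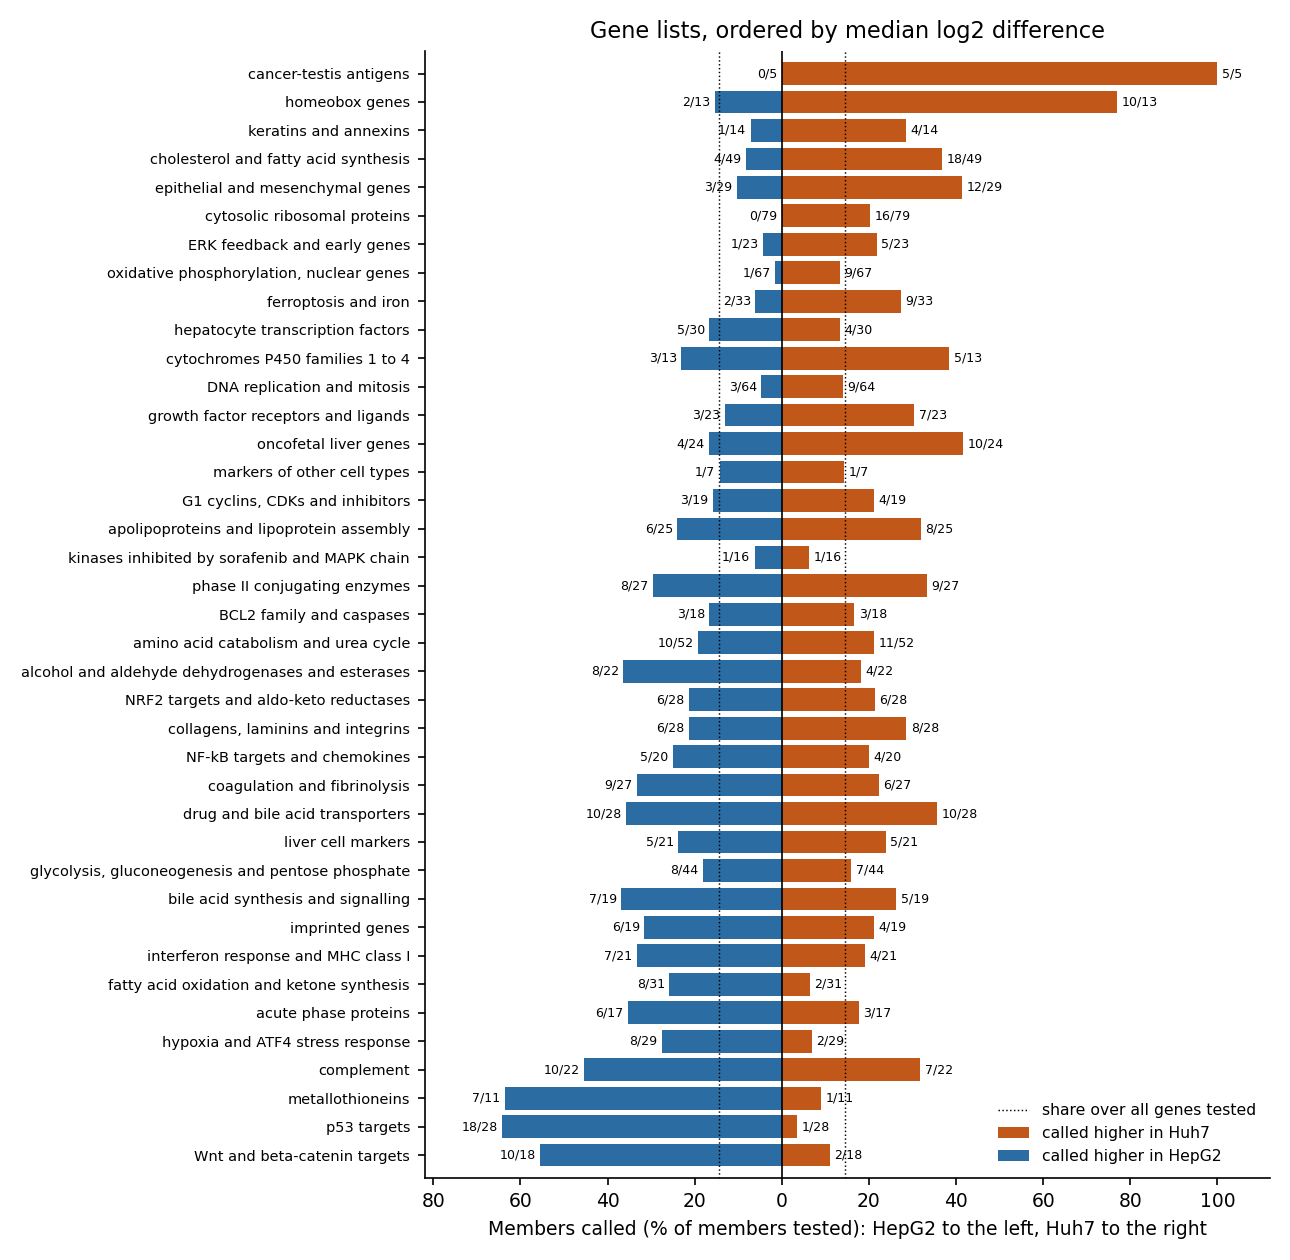
Percent of the tested members of each gene list called higher in resistant Huh7 (right) and in resistant HepG2 (left), with the number of calls at each bar. Dotted lines mark the 14.4% of all tested genes called in either direction. The bars of p53 and Wnt targets lean to HepG2, and those of homeobox genes, cancer-testis antigens and cholesterol synthesis lean to Huh7. Homeobox and cancer-testis members passed the filter mostly through the line in which they were high, so their bars are a description.

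The hepatocyte transcription factors had a share of calls near that of all genes (30% against 28.8%). Of 30 tested, 4 were called higher in resistant Huh7 and 5 higher in resistant HepG2, with a median of 0.29. The core factors HNF4A (0.06, SE 0.14) and FOXA2 (0.30, SE 0.15) were not called. HNF4A measured 85.5, 72.7 and 82.3 FPKM in resistant Huh7 and 64, 90.5 and 77.9 in resistant HepG2, overlapping. KLF15 (8.35, 9.85 and 12.5 against 0.663, 0.768 and 0.877 FPKM) and CREB3L3 (1.80) were higher in resistant Huh7. NR0B2, the bile acid-induced repressor SHP, was higher in resistant HepG2 (96.4, 147 and 122 against 19.9, 18.2 and 24.2 FPKM), as were CEBPB (-1.41) and NFIA (-1.12), NFIA not when the GC trend was removed or HepG2 replicate 1 left out.

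Secreted liver proteins were split between the lines. Of 21 tested liver cell markers, 5 were called in either direction. FGB, the fibrinogen beta chain, stood at 256, 265 and 282 FPKM in resistant Huh7 and 13.6, 9.51 and 10.49 in resistant HepG2 (4.47, SE 0.14, adjusted p 2.64e-07), although the alpha and gamma chain genes FGA (0.56) and FGG (0.28) were not called. The thyroid hormone carrier TTR was at 367, 296 and 322 against 26.8, 32.5 and 32.8 FPKM. In the other direction lay APOH, beta-2-glycoprotein I, at 1636, 1506 and 1594 FPKM in resistant HepG2 and 110.1, 135 and 137 in resistant Huh7, glucose-6-phosphatase (G6PC, 11.6, 15.8 and 16.1 against 0.512, 0.456 and 0.463) and the asialoglycoprotein receptor subunit ASGR1 (-2.25). ALB (-0.25, SE 0.17), APOA1 (-0.45, SE 0.28) and SERPINA1 (-0.62, SE 0.15) were not called, and APOB fell just short of the size limit (-0.98), which it passed without any of 3 single samples.

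Of 25 tested genes for apolipoproteins and lipoprotein assembly, 8 were higher in resistant Huh7 and 6 higher in resistant HepG2. Hepatic lipase (LIPC) was at 15.8, 16.3 and 18 FPKM in resistant Huh7 and 1.34, 1.69 and 1.55 in resistant HepG2, and MTTP, which loads lipid onto APOB, at 65.5, 92.7 and 77.6 against 16.5, 12.7 and 14.2. APOA5, an activator of lipoprotein lipase, was at 24.6, 36 and 32.2 FPKM in resistant HepG2 and at most 0.571 in resistant Huh7, and ANGPTL8 at 17.7, 19.8 and 17.2 against 1.08, 0.254 and 0.602. Of 27 tested coagulation genes, 6 were higher in resistant Huh7, among them plasminogen (PLG, 6.25, 6.08 and 6.55 against 0.139, 0.0514 and 0.109 FPKM) and kininogen (KNG1, 2.30), and 9 higher in resistant HepG2, among them FGL1 (17.2, 14.5 and 16 against 0.335, 0.267 and 0.335 FPKM), factor XI (F11, -2.97) and SERPINA10 (-2.94). Prothrombin (F2, -0.69) was not called.

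Complement genes were among the lists with most calls, 7 of 22 tested higher in resistant Huh7 and 10 higher in resistant HepG2, with a median of -0.73. The classical pathway inhibitor SERPING1 was at 126, 96.4 and 115 FPKM in resistant Huh7 and 0.229, 0.44 and 0.435 in resistant HepG2, and MASP1, a protease of the lectin pathway, at 24.3, 22.9 and 22.3 against 0.112, 0.191 and 0.0971. C3, the central component, was lower in resistant Huh7 (18, 14.8 and 18 FPKM) than in resistant HepG2 (79.6, 107 and 91.5), as were C8G (-3.92), C4BPA (-3.07), factor B (CFB, -1.66) and C4B (-2.91), which is uncertain because C4A is a near-identical copy. C5 was higher in resistant Huh7 (1.54). Acute phase proteins gave 3 of 17 higher in resistant Huh7 and 6 higher in resistant HepG2 (median -0.62). The iron hormone hepcidin (HAMP, 8.91, 6.43 and 7.29 against 0.157, 0.436 and 0.425 FPKM) and hemopexin (HPX, 2.42) were higher in resistant Huh7, and ITIH3 (-2.88), the protease inhibitor SERPINA3 (-2.84) and the interleukin 1 antagonist IL1RN (-2.71) higher in resistant HepG2.

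Oncofetal genes are in many cases low in adult liver and reactivated in tumours. Of 24 tested, 10 were called higher in resistant Huh7 and 4 higher in resistant HepG2 (median 0.16). AFP, alpha-fetoprotein, measured 2115, 2415 and 2343 FPKM in resistant Huh7 and 423, 347 and 329 in resistant HepG2 (2.65, SE 0.14, adjusted p 3.01e-06). The heparan sulphate proteoglycan GPC3 was at 604, 669 and 617 against 17.3, 19.6 and 18.7 FPKM, and the surface glycoprotein CD24 at 281, 352 and 311 against 3.57, 4.22 and 3.85. PROM1, which encodes the stem cell marker CD133, was at 3.7, 4.73 and 4.44 FPKM in resistant Huh7 and at most 0.0556 in resistant HepG2. All samples of resistant Huh7 lay above those of resistant HepG2 for these 4 genes. The fetal growth factor IGF2 ran the other way, at 30.9, 38.9 and 41.9 FPKM in resistant HepG2 and 6.44, 5.37 and 6.28 in resistant Huh7, as did the Notch ligand homologue DLK1 (-1.99) and PEG3. SALL4 overlapped, at 1.59, 1.57 and 1.6 and 1.26, 1.52 and 1.61 FPKM. Imprinted genes, expressed from the allele of 1 parent, gave 4 of 19 higher in resistant Huh7, namely GRB10 (9.12, 9.58 and 9.68 against 1.09, 1.13 and 1.18 FPKM), PLAGL1 (1.96), ZDBF2 (1.88) and SLC22A18 (1.04), and 6 higher in resistant HepG2, led by PEG3, IGF2 and DLK1. The samples hold no allele information.

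Homeobox genes of the HOX clusters, which set axial identity in the embryo, gave 10 of 13 tested called higher in resistant Huh7 and 2 higher in resistant HepG2, a median of 1.44. HOXC10 was at 21.1, 21.8 and 22.7 FPKM in resistant Huh7 and 0.228, 0.117 and 0.0249 in resistant HepG2 (4.35, SE 0.11, adjusted p 1.38e-07), HOXB7 at 6.42, 6.58 and 5.54 against 0.0386, 0.0716 and 0.038 and HOXC13 at 8.18, 6.87 and 7.66 against 0.585, 0.632 and 0.839. The 2 on the HepG2 side were both of the HOXD cluster, HOXD1 (10.6, 13.8 and 12.4 against 0.48, 0.604 and 0.746 FPKM) and HOXD4 (-1.89). Only 13 of the 36 members in the tables passed the filter, mostly through the line in which they were high, so these counts are a description. Cancer-testis antigens, germ cell genes seen in tumours, had 5 tested members, all called higher in resistant Huh7, the line through which most of them passed the filter. MAGEB2 measured 16.3, 16.7 and 17.1 FPKM in resistant Huh7 and at most 0.108 in resistant HepG2, SSX1 3, 2.16 and 3.12 and at most 0.0455, and PRAME 12.2, 12.8 and 11.4 and 2.78, 3.78 and 3.91. MAGEA3, MAGEA6 and PAGE2 were under the filter.

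The kinases that sorafenib inhibits and the MAPK chain below them differed little. Of 16 tested, 1 was called in either direction, the median was 0.08, and the samples of the lines were apart for 6 of the 16, against 71.5% of all genes. The exchange factor SOS1, which loads RAS, was at 22.1, 15 and 16.5 FPKM in resistant HepG2 and 5.02, 5.29 and 4.45 in resistant Huh7. BRAF (0.45, SE 0.13) and the PDGF receptor PDGFRB (0.15) were not called, and KDR and RET did not pass the filter. Genes induced by ERK that feed back on it gave 5 of 23 higher in resistant Huh7 and 1 higher in resistant HepG2. Their share of calls was 26.1%, near the 28.8% of all genes. DUSP5, a nuclear ERK phosphatase, was at 274, 222 and 241 FPKM in resistant Huh7 and 4, 4.23 and 3.62 in resistant HepG2 (5.64, SE 0.11, adjusted p 8.12e-08), DUSP4 (1.41) and DUSP1 (1.35) followed, and PHLDA1 was higher in resistant HepG2 (-2.26). The other common readouts of ERK output, DUSP6 (0.37), SPRY4 (-0.30), ETV5 (-0.14), EGR1 (0.73) and FOSL1 (-0.94), were not called, FOSL1 close to the limit.

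Growth factor receptors and ligands gave 7 of 23 higher in resistant Huh7 and 3 higher in resistant HepG2. The EGF receptor, EGFR, stood at 44.7, 49 and 48 FPKM in resistant Huh7 and 1.46, 1.49 and 1.29 in resistant HepG2 (4.32, SE 0.09, adjusted p 9.02e-08). Its ligand TGFA lay in the other line, at 24.5, 25.2 and 27.7 FPKM in resistant HepG2 and at most 0.0954 in resistant Huh7. The binding protein IGFBP2 was at 10.4, 9.71 and 11.7 against 0.0495, 0.0574 and 0.0609 FPKM, whereas the receptor IGF1R was higher in resistant HepG2 (18.8, 20.5 and 21.3 against 5.84, 6.24 and 6). MET, the hepatocyte growth factor receptor (-0.49), and FGFR4, through which FGF19 signals (92.8, 81 and 125 and 53.4, 120.5 and 104 FPKM, overlapping), were not called, and AXL was under the filter. In bile acid synthesis and signalling, 5 of 19 were higher in resistant Huh7 and 7 higher in resistant HepG2. Beside FGF19 the Huh7 side held the export subunit SLC51B (53.4, 42 and 54.9 against 3.33, 5.64 and 4.7 FPKM) and the hydroxylase CYP39A1 (4.66, 5.98 and 5.24 against 0, 0 and 0.056). The HepG2 side held the synthetic enzymes HSD3B7 (70.1, 93 and 89.6 against 4.58, 3.68 and 4.09 FPKM) and CYP27A1 (-2.03), the repressor NR0B2, and BAAT (-1.10), whose call was lost when the GC trend was removed. The receptor gene NR1H4 (FXR) was not called (0.92), and CYP7A1 and CYP8B1 were under the filter.

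Central carbon metabolism was divided gene by gene. Of 44 genes of glycolysis, gluconeogenesis and the pentose phosphate pathway, 7 were higher in resistant Huh7 and 8 higher in resistant HepG2 (median -0.25). Their share of calls was 34.1%, against 28.8% of all genes. Phosphofructokinase PFKM was at 22.5, 21.7 and 22.4 FPKM in resistant Huh7 and 0.524, 0.583 and 0.54 in resistant HepG2, its regulator PFKFB3 at 43.4, 37.5 and 42.8 against 2.05, 2.48 and 2.35, and pyruvate carboxylase (PC) at 130.2, 105 and 143 against 11.9, 20.7 and 16.8. Liver pyruvate kinase (PKLR) was at 14.4, 18.8 and 16.8 FPKM in resistant HepG2 and 0.383, 0.541 and 0.299 in resistant Huh7, G6PC and SLC2A3 lay on the same side, and PCK2 was at 66.6, 89.3 and 63.7 against 21.7, 16.8 and 18.1. FBP1, a gluconeogenic phosphatase, was higher in resistant Huh7 (3.54, 2.52 and 3.85 against 0.0354, 0.131 and 0.0697 FPKM). HK2 (-0.56) and HKDC1 (-0.78) were not called, and PCK1 was under the filter. Amino acid catabolism and the urea cycle gave 11 of 52 higher in resistant Huh7 and 10 higher in resistant HepG2, a median of -0.00. BCAT1, the cytosolic branched-chain transaminase, was at 24.7, 26.8 and 20.2 FPKM against 0.196, 0.265 and 0.143, and histidine lyase (HAL) at 20.9, 25.9 and 21.6 against 0.551, 0.51 and 0.452. HPD, of tyrosine breakdown, was at 23.7, 38.2 and 33.3 FPKM in resistant HepG2 against 0.213, 0.14 and 0.0946, and MAT1A, the adult methionine adenosyltransferase, at 60.6, 82.3 and 70.6 against 2.73, 2.08 and 2.02. The urea cycle was split, with CPS1 higher in resistant HepG2 (8.88, 8.17 and 8.57 against 0.866, 1.16 and 1.08 FPKM), ARG1 higher in resistant Huh7 (11.2, 13.7 and 10.55 against 1.71, 0.612 and 0.739), ASS1 not called (-0.53) and OTC under the filter.

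Alcohol and aldehyde dehydrogenases and esterases gave 4 of 22 higher in resistant Huh7 and 8 higher in resistant HepG2. The arylacetamide deacetylase AADAC (14.5, 20 and 16.8 against 0.496, 0.328 and 0.209 FPKM), the paraoxonase PON1 (2.63), ALDH1A1 (231, 286 and 265 against 99.4, 80.8 and 83.4) and CES1 (1.31) were higher in resistant Huh7, and CES3 (-2.45), ADH6 (-1.81), ALDH1B1 (-1.70) and ADH4 (-1.58) higher in resistant HepG2. Of the cytochromes P450 of families 1 to 4, 13 of 34 passed the filter, 5 higher in resistant Huh7 and 3 higher in resistant HepG2. CYP1A1, the dioxin-inducible enzyme, measured 23.3, 18.2 and 20.9 FPKM in resistant Huh7 and 1.75, 1.72 and 2.42 in resistant HepG2, with CYP4F12 (1.72) and CYP4F3 (1.60) in the same direction. CYP2W1 (9.65, 23 and 20.8 against 0.209, 0.337 and 0.379 FPKM), CYP4F11 (-2.25) and CYP3A43 (-1.5) were higher in resistant HepG2, and CYP3A5 was not called (-0.17).

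The conjugating enzymes of phase II were split in the same way, 9 of 27 higher in resistant Huh7 and 8 higher in resistant HepG2. UGT2B4, a glucuronosyltransferase of bile acids, was at 42.7, 59.8 and 48.2 FPKM in resistant Huh7 and 0.353, 0.393 and 0.417 in resistant HepG2, while its relatives UGT2B10 (46.8, 32.4 and 43.8 against 1.5, 1.24 and 0.926 FPKM) and UGT2B7 (23.1, 18.5 and 20 against 1.66, 2.43 and 2.03) were on the HepG2 side, so that members of 1 gene cluster went opposite ways. These genes are similar in sequence, and how the counting divided shared reads is not given in the sources used here. The sulphotransferase SULT2A1 was higher in resistant HepG2 (-1.93), and the transferase GSTA1 higher in resistant Huh7 (13.1, 16 and 17.2 against 1.16, 1.23 and 1.65 FPKM). Drug and bile acid transporters gave 10 of 28 in either direction, against 14.4% of all genes for each, and the samples of the lines were apart for 27, against 71.5% of all genes. SLC22A9, an organic anion carrier, was at 45.3, 48.2 and 47 FPKM in resistant Huh7 and 0.575, 0.672 and 0.59 in resistant HepG2 (4.89, SE 0.09, adjusted p 8.12e-08), and the prostaglandin carrier SLCO2A1 at 7.64, 6.29 and 6.8 against 0.0223, 0.0311 and 0.022. The uptake carrier SLCO1B3 was also higher in resistant Huh7 (1.90). The efflux pumps ABCB1 (14.9, 11.77 and 12.3 against 3.01, 3.63 and 3.43 FPKM), ABCC2 (224, 197 and 204 against 49.1, 58.5 and 54.9) and ABCC3 (-1.43) were higher in resistant HepG2, as were SLCO4A1 (-3.67), the sterol exporter ABCG5 (-3.07) and SLC47A1 (-2.33), and ABCG2 was not called (0.75).

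Metallothioneins, small zinc- and copper-binding proteins, were mostly higher in resistant HepG2. Of 11 tested genes of this list, 7 were called higher there (median -1.27), 6 of them metallothioneins and the last the zinc exporter SLC30A1 (-1.27). MT1G was at 507, 702 and 622 FPKM in resistant HepG2 and 92.5, 59.4 and 95.2 in resistant Huh7 (-2.89, SE 0.21, adjusted p 1.54e-05), MT1E at 379, 413 and 403 against 89.2, 65.2 and 84.9, MT1F at 79.5, 93 and 82.2 against 26.3, 20.5 and 27 and MT1X at 28.1, 35.9 and 29.7 against 9.6, 7.22 and 10.47. MT1L, an annotated relative, was called in the other direction at 14.9, 8.33 and 13.2 FPKM in resistant Huh7 and 0.287, 0.932 and 0.141 in resistant HepG2. MT2A, usually among the most abundant members, was listed at 0.812, 0.359 and 0.526 and 1.64, 3.58 and 3.49 FPKM. The family shares sequence, so that the split among members is uncertain. NRF2 targets and aldo-keto reductases gave 6 of 28 in either direction. ME1, at 74.9, 94.4 and 82.8 FPKM in resistant Huh7 against 0.368, 0.227 and 0.19, and the glutamate-cysteine ligase subunit GCLM (25.2, 28.7 and 25.5 against 11.3, 8.73 and 9.28) lay on the Huh7 side together with TALDO1 (1.15), which was not called when the GC trend was removed. AKR1C3 and the catalytic ligase subunit GCLC (20.3, 15.7 and 16.9 against 5.23, 6.67 and 5.91 FPKM) lay on the HepG2 side, as did AKR1B10 (-1.22). NQO1, the common readout of NRF2, stood at 715, 685 and 730.3 FPKM in resistant Huh7 and 337, 406 and 369 in resistant HepG2, under the size limit (0.94), and HMOX1 (-0.91), AKR1C1 (-0.5) and AKR1D1 (0.77) were not called.

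Genes of ferroptosis, the iron-dependent death by lipid peroxidation, and of iron handling had 33.3% called, against 28.8% of all genes. Of 33 tested, 9 were higher in resistant Huh7 and 2 higher in resistant HepG2 (median 0.33). The lipid peroxidase GPX4 was at 35, 30.3 and 53.5 FPKM in resistant Huh7 and 32.8, 84.4 and 69.5 in resistant HepG2 (-0.57, SE 0.36), overlapping and widely spread. The cystine carrier SLC7A11 (-0.72), the acyl-CoA synthetase ACSL4 (-0.43), AIFM2 (-0.89) and the transferrin receptor TFRC (0.63) were not called either. Among the called members were HAMP, the cyclohydrolase GCH1 (20.1, 27.8 and 21.6 against 9.64, 7.84 and 9.41 FPKM), the ferritin heavy chain FTH1 (19, 14.7 and 19.4 against 5.18, 8.49 and 7.7, uncertain because of its many processed copies), DHODH, FDFT1, NOX1 and CHAC1 on the Huh7 side, and the ferroxidase CP (11.3, 8.32 and 8.63 against 0.896, 1.016 and 0.937) and the ferritin receptor NCOA4 (239, 207 and 224 against 53.7, 69.6 and 70) on the HepG2 side. FDFT1 is also a member of the cholesterol list.

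Nuclear genes of oxidative phosphorylation were mostly uncalled, with 9 of 67 higher in resistant Huh7 and 1 higher in resistant HepG2 (median 0.36). That is 14.9% called, against 28.8% of all genes. The complex I subunit NDUFV1 was at 75, 62.1 and 81.2 FPKM in resistant Huh7 and 11.4, 19.3 and 16.8 in resistant HepG2, and NDUFS8 (1.74) and NDUFA4 (1.61) went the same way. UQCRC2, a core subunit of complex III, stood alone on the HepG2 side, at 47.9, 50 and 47.4 FPKM against 11.9, 12.6 and 12.4. Cytosolic ribosomal protein genes had 16 of 79 called, a share of 20.3% against 28.8% of all genes. All 16 were higher in resistant Huh7 (median 0.42), led by RPL35 (92.2, 76.8 and 103 against 21.5, 29.9 and 25.4 FPKM), RPL15 (1.64) and RPS23 (1.5). Several of them, such as RPL41 (3.83, 3.76 and 3.82 FPKM in resistant Huh7), stood far below others, such as RPL32 (612, 542 and 654), and many have processed pseudogenes, so that their levels are uncertain. Genes of DNA replication and mitosis gave 9 of 64 higher in resistant Huh7 and 3 higher in resistant HepG2, a share of 18.8% against 28.8% of all genes. The kinase AURKB (105, 82.9 and 90.9 against 24.5, 29.9 and 27.3 FPKM), the helicase subunit MCM6 (32.5, 38.2 and 34.5 against 9.66, 10.8 and 10.3) and RPA2 (1.48) were higher in resistant Huh7, and the kinesin KIF11 (-1.30), TOP2A (-1.24) and CENPF (-1.14) higher in resistant HepG2. Removing the GC trend left 7 of the 12 calls, without those of TOP2A and CENPF, and CENPF was also lost without resistant HepG2 replicate 1. The proliferation marker MKI67 (-0.48), PCNA (-0.52) and CCNB1 (0.41) were not called.

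Regulators of G1 gave 4 of 19 higher in resistant Huh7 and 3 higher in resistant HepG2. CDKN2A, which encodes p16 and ARF, was at 16.6, 13.9 and 16.7 FPKM in resistant Huh7 and 1.34, 1.24 and 1.07 in resistant HepG2, and its neighbour CDKN2B at 6.68, 7.56 and 6.88 against 0.306, 0.324 and 0.43. CDK6, a target kinase of p16, lay the other way, at 86.3, 53 and 62.7 FPKM in resistant HepG2 against 5.89, 6.09 and 5.26 (-3.31, SE 0.18, adjusted p 3.17e-06). CDK4 (1.13), E2F2 (1.08) and RBL1 (-1.23) were near the limit. When the GC trend was removed 4 of the 7 calls were left, CDK4 and RBL1 not among them, and CDK4 was also lost without resistant HepG2 replicate 1. Cyclin D1 (CCND1, 0.73) was not called. The BCL2 family and caspases gave 3 of 18 in either direction, 33.3% called against 28.8% of all genes. BID (33.5, 31.7 and 34 against 10, 11.2 and 11.3 FPKM), CASP6 (1.32) and BMF (1.10, not with the GC trend removed) were on the Huh7 side. BOK (-2.13), BAX (-1.16) and BCL2 (-1.06) were on the HepG2 side. BOK was the least even of these, at 13, 34.6 and 33.3 FPKM in resistant HepG2 and 3.71, 3.63 and 8.4 in resistant Huh7. MCL1 did not differ beyond its error (0.01, SE 0.14).

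Hypoxia and ATF4 stress genes were lower in resistant Huh7 in 8 of 29 tested and higher in 2 (median -0.72). The share called was 34.5%, against 28.8% of all genes. The glucose transporter SLC2A1 measured 383, 533 and 453 FPKM in resistant HepG2 and 67.7, 55.8 and 59.9 in resistant Huh7 (-2.87, SE 0.15, adjusted p 2.55e-06), the carbonic anhydrase CA9 3.61, 6.22 and 6.09 against 0.0947, 0.186 and 0.0945, and the mTORC1 inhibitor DDIT4 10.9, 18.2 and 17.5 against 1.92, 1.99 and 2.99. Another carbonic anhydrase, CA12, was in the other line, at 2.09, 2.05 and 2.38 FPKM in resistant Huh7 and at most 0.00748 in resistant HepG2, as was CHAC1 (1.13). VEGFA (-0.5), DDIT3 (-0.76) and ASNS (-0.93) were not called. NF-kB targets and chemokines gave 4 of 20 higher in resistant Huh7 and 5 higher in resistant HepG2. IL18 (6.28, 5.05 and 6.9 against 0.584, 0.291 and 0.486 FPKM), NFKBIZ (1.92), CXCL8 (2.57, 2.99 and 3.52 against 0.805, 0.601 and 0.818) and CXCL2 (1.24) were on the Huh7 side, and CCL16 (18.2, 19.9 and 17.6 against 0.0604, 0.0297 and 0.181), the deubiquitinase TNFAIP3 (-2.46) and LIF (-1.68) on the HepG2 side. Interferon response and MHC class I genes gave 4 of 21 higher in resistant Huh7 and 7 higher in resistant HepG2 (median -0.45). OAS1 (9.29, 9.83 and 9.12 against 1.8, 1.95 and 1.82 FPKM), MX2 (1.82) and MX1 (1.51) were on the Huh7 side, and IFITM3 (136, 187 and 158 against 35.3, 25.2 and 30.2), BST2 (-2.38) and NLRC5 (-1.90), a transactivator of MHC class I, on the HepG2 side. ISG15 passed narrowly (-1.16, SE 0.35, adjusted p 0.0213) and lost its call without any of 4 single samples.

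Epithelial and mesenchymal genes gave 12 of 29 higher in resistant Huh7 and 3 higher in resistant HepG2 (median 0.53). Liver-intestine cadherin CDH17 was at 44, 60.9 and 53.2 FPKM in resistant Huh7 and 0.136, 0.238 and 0.149 in resistant HepG2, and E-cadherin (CDH1) at 22.6, 26 and 23.8 against 1.21, 0.859 and 0.8 (3.68, SE 0.12, adjusted p 3.61e-07). SNAI1, a repressor of E-cadherin, was higher in the same line, at 22.2, 16.9 and 21.5 FPKM against 1.86, 2.5 and 2.38. Most of the other members on the Huh7 side are claudins or other junction and epithelial splicing genes. The desmosomal protein DSP was higher in resistant HepG2 (124, 109 and 113 against 17.5, 18.1 and 18.2 FPKM), as were fibronectin (FN1, 907, 989 and 988 against 305, 296 and 301) and the matrix cross-linking oxidase LOX (-1.47). N-cadherin (CDH2, -0.65) and ZEB1 (-0.90) were not called, and vimentin (VIM) was under the filter. Keratins and annexins gave 4 of 14 higher in resistant Huh7 and 1 higher in resistant HepG2. Beside KRT19 these were ANXA2 (96.3, 94.6 and 107 against 20.8, 21.9 and 22.2 FPKM), ANXA5 (1.32) and ANXA6 (1.31), and KRT23 on the other side (38.8, 39.9 and 44.1 against 2.76, 2.59 and 4.02). KRT8 (0.96) and KRT18 (0.95) were just under the limit and were called without resistant Huh7 replicate 2 or without resistant HepG2 replicate 2. Collagens, laminins and integrins gave 8 of 28 higher in resistant Huh7, led by COL5A2 (43.3, 50.9 and 49.2 against 0.429, 0.397 and 0.317 FPKM), COL2A1 (3.87) and COL6A1 (3.14), and 6 higher in resistant HepG2, led by ITGB4 (-2.11), ITGA2 (36.3, 26.2 and 28.1 against 6.26, 6.92 and 6.23) and LAMA5 (-1.64). COL4A1 was under the filter.

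Histone genes of the replication-dependent kind, whose mRNAs end in a stem-loop instead of a poly(A) tail, are added here as a class chosen after their values were seen. Of 58 tested, 28 were called higher in resistant Huh7 and 1 higher in resistant HepG2, a median of 0.99. For this and the classes below, 14.4% of all genes tested were called in either direction. Histone genes took 6.94%, 5.60% and 7.12% of the summed FPKM in the resistant Huh7 samples. In the resistant HepG2 samples they took 2.24%, 3.87% and 3.33%, without overlap. The genes are short and similar to each other. Small nuclear RNA genes ran the other way, with 43 of 338 higher in resistant Huh7 and 125 higher in resistant HepG2 (median -0.64), as did small nucleolar RNA genes (16 and 34 of 138), miscellaneous RNA genes (12 and 59 of 208) and processed pseudogenes (47 and 142 of 612, median -0.41). The share of summed FPKM in small nuclear RNA genes was 0.753%, 0.793% and 0.656% in resistant Huh7 and 1.18%, 0.816% and 0.995% in resistant HepG2. Genes of small RNAs are short as well, so that 1 FPKM stands for few reads in them and their calls are uncertain. The part of library composition in these differences was not tested. Among the 10849 protein-coding genes 2979 were called, 1637 of them higher in resistant Huh7 and 1342 higher in resistant HepG2.

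A smaller set of genes was alike within a fixed bound. For 1996 genes (15.9%) the 95% confidence interval of the difference lay within 0.5 on the log2 scale of 0 on either side, and 98 of these had at least 50 FPKM in both lines. The ferritin light chain FTL stood at 1528 ± 316 FPKM (SD, n = 3) in resistant Huh7 and 1544 ± 210.2 in resistant HepG2. APOA2, of high-density lipoprotein, was at 1472 ± 169 and 1408 ± 219, and the elongation factor EEF1A1 at 1067 ± 43.5 and 1054 ± 39.1. Further examples were the mitochondrial ADP/ATP carrier SLC25A5 (312 ± 17.9 and 310.1 ± 41.4), ODC1, the first enzyme of polyamine synthesis (230.4 ± 11.9 and 202 ± 18.5), and the replication helicase subunit MCM3 (225 ± 7.06 and 204 ± 15.8).

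The differences were not even along the genome. Counting each tested protein-coding gene on the chromosome the tables give, the median difference ran from -0.63 on chromosome 10 to 0.39 on chromosome 9. On chromosome 10, 127 of 429 genes were called higher in resistant HepG2 and 30 higher in resistant Huh7, and 22.1% of all differences were above 0. On chromosome 9, 97 of 442 genes were called higher in resistant Huh7 and 31 higher in resistant HepG2, and 68.1% were above 0. Chromosomes 14 and 13 followed chromosome 10, with medians of -0.48 each, and chromosome 19 (0.36) and chromosome 7 (0.31) followed chromosome 9. In the parental cells the medians were -0.31 for chromosome 10 and 0.36 for chromosome 9, but -0.09 for chromosome 14 and 0.21 for chromosome 13. Differences followed gene GC content weakly (Spearman's rho 0.18 across 12541 genes, which are not independent). With that trend removed, the resistant medians were -0.54, -0.49, -0.39 and 0.43 for chromosomes 10, 14, 13 and 9. A GC trend was not removed from the parental medians, so its part in their distance from the resistant medians was not tested. DNA copy number was not measured in these samples.

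**Figure D4:**
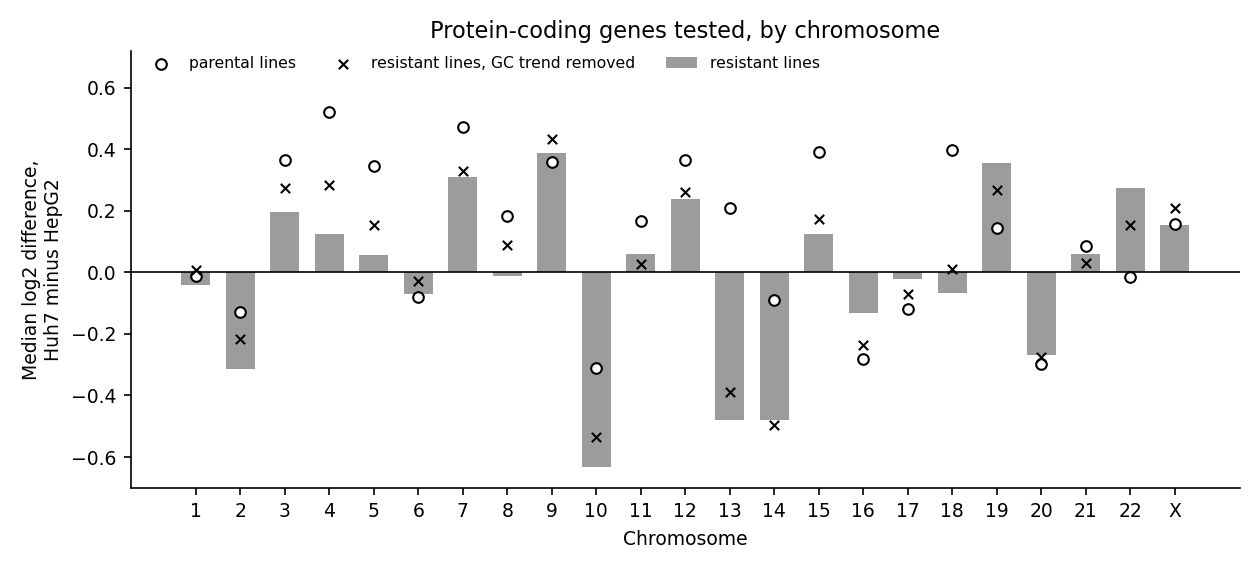
Median log2 difference (resistant Huh7 minus resistant HepG2) of the tested protein-coding genes of each chromosome (grey bars). Crosses show the medians with the GC trend removed and open circles the medians between the parental lines, from which no GC trend was removed. Chromosome 10 is lowest at -0.63 and chromosome 9 highest at 0.39.

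The last comparison asked whether the gap between the lines was the same before and after selection, from the interaction of line and resistance in all 12 samples. It shares the resistant samples with the comparison above, so the values are given side by side and no overlap is drawn from them. Of 13800 genes tested, 3976 (28.8%) had a difference between resistant lines that departed from that between parental lines, 1459 towards Huh7 and 2517 towards HepG2, with a median of -0.15. Removing the GC trend turned this surplus, with 1538 towards Huh7 and 1349 towards HepG2, whereas it kept its direction with median-ratio scaling (1861 and 2028) and upper-quartile scaling (1623 and 2298).

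HAL, the first enzyme of histidine breakdown, was at 2.43, 2.84 and 2.19 FPKM in parental Huh7 and 32.2, 26.7 and 14.2 in parental HepG2, and at 20.9, 25.9 and 21.6 and 0.551, 0.51 and 0.452 in the resistant cells, so that the order of the lines reversed (6.77, SE 0.32, adjusted p 1.97e-07). The calcium-binding protein S100P likewise went from 21.6, 13.5 and 16.2 and 201, 261 and 151 FPKM in parental Huh7 and HepG2 to 253, 199 and 253 and 32.1, 43 and 30.6 in resistant cells. CDA, the cytidine deaminase, went from 1.22, 0.801 and 0.643 and 11.2, 9.13 and 4.69 FPKM to 23.9, 18 and 18.9 and 1.1, 1.93 and 1.69, and HAMP from 1.2, 1.2 and 0.555 and 13.2, 9.49 and 3.87 to 8.91, 6.43 and 7.29 and 0.157, 0.436 and 0.425. In these 4 genes parental HepG2 lay above parental Huh7 in every sample and resistant HepG2 below resistant Huh7 in every sample. DUSP5 overlapped between the parental lines (71, 64.3 and 55.6 and 119, 102 and 55 FPKM) and did not in the resistant ones. MYCN was already higher in parental Huh7 (35.4, 34.1 and 24.4 FPKM) than in parental HepG2 (9.16, 15.4 and 15.7), and its interaction was 5.29 (SE 0.27).

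Towards HepG2, the largest interaction among genes also called between the resistant lines was that of KLHL14, an adaptor of ubiquitin ligases, with 2.28, 2.45 and 2.54 FPKM in parental Huh7 and 2.01, 2.53 and 3.67 in parental HepG2, and 0.179, 0.353 and 0.221 and 28.2, 22.3 and 24.9 in the resistant cells (-4.28, SE 0.21, adjusted p 2.28e-07). The metallothioneins MT1E (109, 93.2 and 87.6 against 27.1, 42.6 and 55.4 FPKM) and MT1X (14.9, 10 and 10.4 against 2.02, 3.76 and 4.09) were higher in parental Huh7 but lower in resistant Huh7 than in HepG2. HEPACAM (0.116, 0.0775 and 0.0323 against 1.53, 3.12 and 3.09 FPKM) and TNFRSF19 (5.44, 5.67 and 5.47 against 14.8, 17.8 and 29.8) were higher in parental HepG2 and further apart in the resistant cells. For others of the large differences between resistant lines no departure from parental cells was called, with an interaction of -0.04 (SE 0.17) for GPC3, -0.03 (SE 0.31) for SLC2A3, 0.07 (SE 0.15) for MASP1 and 0.33 (SE 0.15) for AKR1C3.

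**Figure D5:**
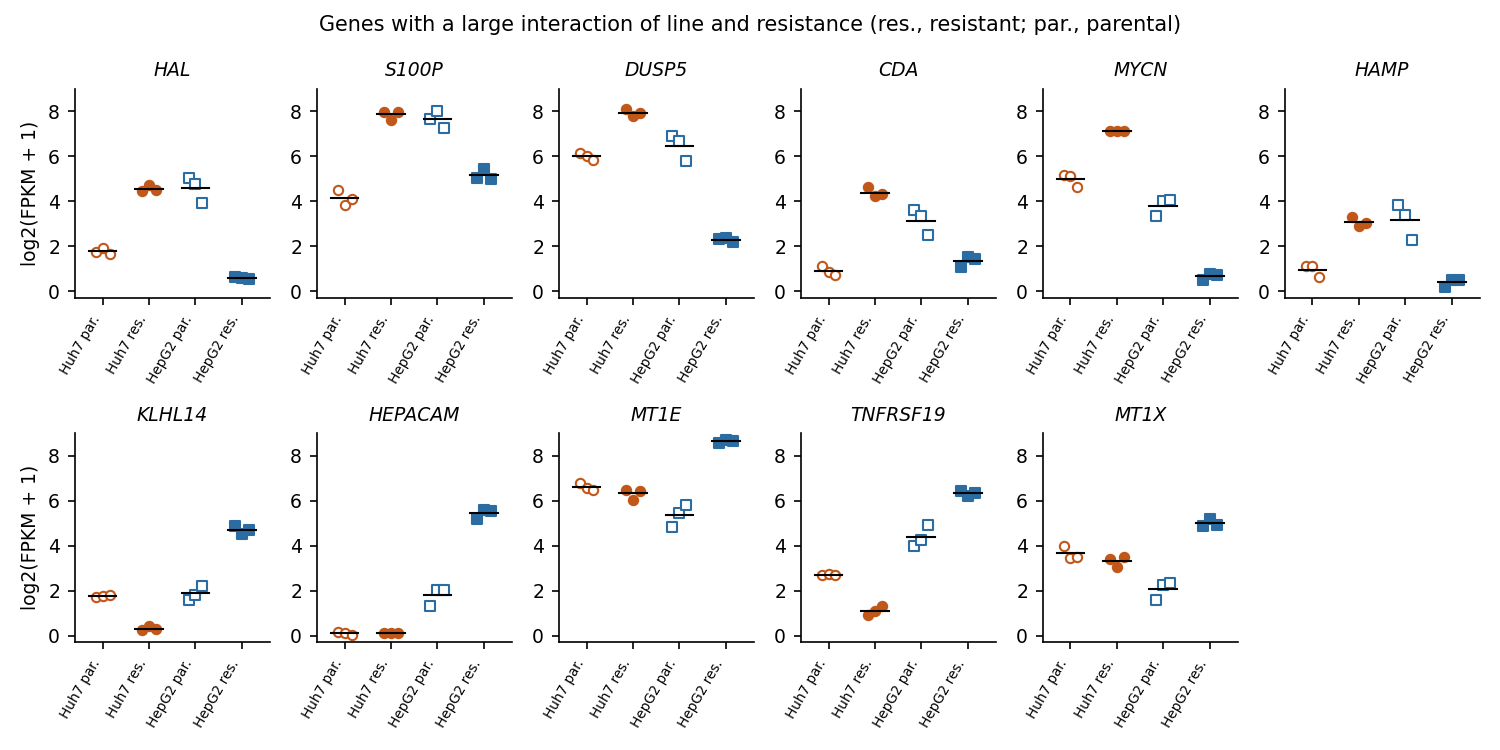
Log2(FPKM + 1) of 11 genes with a large interaction of line and resistance, 6 towards Huh7 and 5 towards HepG2, in parental and resistant cells of both lines. They were taken from coding genes also called between the resistant lines. Points are samples (n = 3 per group) and short lines mark group means. In HAL, S100P, CDA and HAMP the HepG2 points lie above the Huh7 points in parental cells and below them in resistant cells.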

How the data were processed

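RNA-seq had been performed on 3 samples each of parental and resistant Huh7 and HepG2 cells, from total RNA and NEBNext Ultra libraries per the labels. The authors deposited 1 table per sample of gene levels in FPKM, scaled by gene length and depth. The unit is not named in the tables and was read from the values of 6896 single-exon genes. Of these, 2888 to 4085 values per sample were above 0 and at most 2000 reads. Among them 99.5% to 99.6% fell on whole reads (tolerance 0.05 reads). The aligner and counter are not given in the sources used here. Of 98711 rows, 71462 with a NONCODE identifier were not used. Gene positions are those of the tables (GRCh38).

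Groups came from the labels. Genes with at least 1 FPKM in 3 of the 6 samples were tested on log2(FPKM + 1), with a pseudocount of 1, by limma 3.58.1 (R 4.3.3, empirical Bayes with variance trend), with Benjamini-Hochberg adjusted p-values over all genes tested. A call required an adjusted p under 0.05 and a difference over 1. The interaction was fitted on all 12 samples with the same filter over them. Simulated data with 200 changed genes were used to test the code. The members and the 39 gene lists (1362 genes) were chosen with earlier results of these data known. Genes are named by rule, first the 12 protein-coding genes per direction with the largest difference among called genes without overlap. Up to 3 called members per direction of a list were named beside fixed reference genes. The 8 most abundant coding genes per line that the other line lacked were also named. So were the 6 largest interactions per direction among coding genes also called between the resistant lines. XIST and Y-linked genes were left out. Some genes that the rule names are not reported here. Other genes named, among them further members of lists, were chosen after their values were seen. Depth was 12290133 to 19285958 recovered reads per sample. Alternatives covered the pseudocount, filter, scaling, variance model, a count model on recovered reads, GC trend (lowess span 0.3) and leaving out each sample. Python 3.11.15 (numpy 2.4.6, pandas 2.3.3) served for the tables.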

Additional observations from a re-analysis of the deposited data

Results flagged for a closer look

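The results below stand out because the difference between the lines was not the same in resistant as in parental cells, by the interaction term of the limma fit on all 12 samples. It concerned 3976 of 13800 genes. Values are the log2 difference between the lines (Huh7 minus HepG2) in resistant cells minus that in parental cells. The genes named were taken from coding genes also called between the resistant lines.

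Towards Huh7, the interaction was 6.77 for HAL (SE 0.32), 6.2 for S100P (SE 0.31), 6.09 for DUSP5 (SE 0.32), 5.29 for CDA (SE 0.35), 5.29 for MYCN (SE 0.27) and 4.86 for HAMP (SE 0.45). Towards HepG2, it was -4.28 for KLHL14 (SE 0.21), -3.61 for HEPACAM (SE 0.25), -3.56 for MT1E (SE 0.31), -3.53 for TNFRSF19 (SE 0.29) and -3.27 for MT1X (SE 0.31). Each of the 11 kept its call and direction under every alternative in which it was tested. The parental samples were sequenced to between 12290133 and 17944467 recovered reads, less than the resistant Huh7 samples, and the part of depth in these values was not tested.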

How the results depend on the processing

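The 3613 calls between the resistant lines (1805 higher in Huh7 and 1808 higher in HepG2) became 3626 with upper-quartile scaling, 3600 with median-ratio scaling, 3609 in a fit of all 12 samples, 3676 without a filter, 3463 with the GC trend removed, 4636 with a pseudocount of 0.1 and 4722 with limma-voom on the recovered reads. Requiring 1 FPKM in all 6 samples left 9505 genes tested and 1897 called, 912 higher in Huh7 and 985 higher in HepG2, since genes silent in 1 line then drop out. Leaving out 1 sample at a time gave 2735 to 3211 calls, 972 to 1900 higher in Huh7 and 1147 to 1873 higher in HepG2, where the filter of 3 samples then removes genes expressed in the shortened line only. With the genes tested kept, an alternative chosen after seeing the data, the range was 3442 to 3838. The interaction gave 3455 to 4288 calls with 1 sample left out, 5246 with a pseudocount of 0.1, and 2887 with the GC trend removed, of which 1349 towards HepG2. Same-numbered samples of the lines share only a number. The correlations of their deviations from the line means were -0.10, -0.42 and 0.18, and those of differently numbered samples ran from -0.38 to 0.44. With the replicate block 3629 genes were called, 1808 and 1821 by direction, and 3975 for the interaction.

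No named gene reversed. Of 307 named genes, 293 kept their side of the threshold with the GC trend removed, 299 with limma-voom, 301 with a pseudocount of 0.1 and 307 under either scaling. With the GC trend removed NFIA, TCF7L1, TALDO1, TOP2A, CENPF, CDK4, RBL1, BMF and BAAT lost their calls, and FOSL1, ANXA3, HMOX1, AIFM2 and NR1H4 gained one. List medians near 0 changed sign there for G1 regulators, apolipoproteins, coagulation, collagens, sorafenib targets and markers of other cell types. The cause was not tested. The 3 samples a line limit the precision of every value.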

Other observations

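For some members of metabolic lists the gap between the lines differed between parental and resistant cells, and they were chosen after their values were seen. The carboxylesterase CES1 measured 5.48, 4.65 and 4.15 FPKM in parental Huh7 and 44.8, 50.7 and 41.4 in parental HepG2, but 5.26, 4.4 and 4.46 in resistant Huh7 and 1.07, 1.51 and 1.33 in resistant HepG2 (interaction 4.33, SE 0.18, limma adjusted p 6.67e-08). The order of the lines thus reversed. ACSL5, an acyl-CoA synthetase, was at 107, 103 and 75 FPKM in parental HepG2 and 9.87, 11.3 and 9.92 in resistant HepG2, against 1.18, 1.58 and 1.023 and 3.32, 3.17 and 2.69 in Huh7, so that the gap became narrower. The same held for the lipid droplet protein PLIN2 (interaction 2.52) and the reductase AKR1B10 (3.73), while CTH, the cystathionine lyase, was higher in parental HepG2 (37.3, 45.2 and 45.4 against 8.4, 7.38 and 8.33 FPKM) and lower in resistant HepG2 (5.94, 6.73 and 5.56 against 13, 15.7 and 11.7).

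The mitochondrial ribosomal RNA gene MT-RNR2 was at 92.8, 59.9 and 2844 FPKM in the resistant Huh7 samples and 152, 123 and 128 in the resistant HepG2 samples and was not called (0.91, limma adjusted p 0.555), the high value being that of resistant Huh7 replicate 3.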
